A study of Rattus norvegicus with 6 samples.

Results

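The complement genes described here are 9 genes chosen by their symbols: the 3 chains of C1q (C1qa, C1qb and C1qc), the proteases C1r and C1s, their inhibitor Serping1, and the components C4b, C3 and Cfb. All 9 were found among the 32883 genes of the count table. They took 10 rows, because 2 rows carry the symbol Cfb, and all 10 rows passed the filter on low counts. RNA-seq counts came from the vestibular epithelium of 6 adult male Long-Evans rats, a tissue that senses head movement through its hair cells (HCs). The 3 Control rats drank plain water. The 3 rats of the IDPN-4wk group received 3,3'-iminodipropionitrile (IDPN), which damages HCs, at 20 mM in their drinking water for 4 weeks. Each library came from 1 animal, with 2 utricles and 6 cristae pooled, so that nothing is known here of single organs or single cells. The animals are intact rats with no transgene, and the characteristics in the labels give 1 batch for all libraries. The animal codes in the titles of the 3 IDPN-4wk libraries share a prefix that no Control code carries. The labels do not say what it marks, and if it marks a cage or litter, its effect and that of IDPN cannot be told apart.

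Complement is a cascade of plasma proteins that marks targets for removal. In its classical pathway C1q, a recognition molecule built of A, B and C chains, binds a target and activates C1r, which cleaves C1s. C1s then cleaves C4 and C2, and the enzyme formed from their fragments cleaves C3, the step on which all pathways meet. Factor B, the product of Cfb, forms the C3-cleaving enzyme of the alternative pathway. Serping1 encodes C1 inhibitor, a serpin that inactivates C1r and C1s. Most plasma complement is made in the liver, whereas C1q is made mainly by macrophages and their relatives, including microglia of the central nervous system.

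Promoters are shown for C1qa, C1qb and C1r, which belong to gene clusters whose members differed in their calls, and for C3, which held the same motif as C1r. In the order of protein-coding genes of the GRCr8 build, C1qb, C1qc and C1qa follow each other directly on chromosome 5, and C1r and C1s are neighbours on chromosome 4. Promoters from RefSeq (GRCr8) were found for 5 of the 9 genes: C1qa, C1qb, C1r, C3 and C4b. Each runs from 250 bases before to 50 bases after the start of the gene and is written 5′ to 3′ on the strand of the gene. Capitals mark the motifs searched for.
C1qa promoter, chr5:154419884-154420183, minus strand: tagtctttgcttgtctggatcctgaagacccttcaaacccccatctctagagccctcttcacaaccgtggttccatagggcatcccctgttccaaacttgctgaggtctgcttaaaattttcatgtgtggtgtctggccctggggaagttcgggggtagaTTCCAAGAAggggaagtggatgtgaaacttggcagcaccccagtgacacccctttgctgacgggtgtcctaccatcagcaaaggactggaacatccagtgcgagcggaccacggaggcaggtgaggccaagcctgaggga
C1qb promoter, chr5:154407778-154408077, minus strand: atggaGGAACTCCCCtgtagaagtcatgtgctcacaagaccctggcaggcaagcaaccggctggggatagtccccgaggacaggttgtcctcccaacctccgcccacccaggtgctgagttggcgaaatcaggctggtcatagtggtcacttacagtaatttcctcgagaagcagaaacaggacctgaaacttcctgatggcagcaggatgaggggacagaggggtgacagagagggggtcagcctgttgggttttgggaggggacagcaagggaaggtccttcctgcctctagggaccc
C1r promoter, chr4:159098763-159099062, plus strand: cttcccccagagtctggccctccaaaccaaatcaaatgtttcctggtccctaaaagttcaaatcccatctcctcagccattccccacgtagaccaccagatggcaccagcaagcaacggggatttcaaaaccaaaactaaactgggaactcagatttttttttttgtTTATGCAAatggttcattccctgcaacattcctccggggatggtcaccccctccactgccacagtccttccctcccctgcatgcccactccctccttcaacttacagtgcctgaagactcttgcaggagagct
C3 promoter, chr9:2201290-2201589, minus strand: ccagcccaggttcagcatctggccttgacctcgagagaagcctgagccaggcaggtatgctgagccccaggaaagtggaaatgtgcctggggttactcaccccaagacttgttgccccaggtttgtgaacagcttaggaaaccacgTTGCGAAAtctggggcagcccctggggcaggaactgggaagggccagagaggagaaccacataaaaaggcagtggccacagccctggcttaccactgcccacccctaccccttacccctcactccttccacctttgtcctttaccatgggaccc

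The motifs were searched on both strands and are descriptions of letters, not binding sites. The gamma-activated site TTCNNNGAA was found in the C1qa promoter at position -90 from the start site and in 8.87% of the 33469 promoters of the same length. A match to the NF-kB consensus GGGRNNYYCC (R is A or G, Y is C or T) was found in the C1qb promoter at position -245, on the other strand. Such matches were found in 7.51% of all promoters. The C/EBP site TTGCNNAA was found in the promoters of C1r, at position -83 on the other strand, and of C3, at position -104, and in 10.6% of all promoters. The interferon-stimulated response element GAAANNGAA (9.71% of all promoters) and the TATA box TATAAA (14.2%) were found in 0 of the 5 promoters, and the C4b promoter held none of the motifs.

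Values are CPM, counts scaled to a common library total after TMM scaling, which corrects for library size and composition. Depth ranged from 13358678 to 18561991 counts per library, so that 3 counts, the limit that a count of 0 allows, were worth from 0.155 to 0.216 CPM. Since transcript lengths were not used, levels were compared between groups and not between genes. HC markers were present in all 6 libraries, and 6 of 9 were downregulated in IDPN-4wk. Of 15 interferon-stimulated genes, 11 were upregulated, with a summed level from 589 to 620 CPM in Control animals and from 758 to 999 CPM in IDPN-4wk libraries.

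The comparison of IDPN-4wk with Control animals asked how the complement genes respond to subchronic ototoxic exposure. C1s, C1qb and Serping1 were upregulated, by a log2-Fold change of 1.30, 0.71 and 0.59, and none of the 10 rows was downregulated. A gene was called upregulated or downregulated with an adjusted p (Padj) under 0.05 from the quasi-likelihood test of edgeR and a fold change over 1.5. Among all 14352 genes tested, 9.71% were called in either direction, 3.09% as upregulated and 6.62% as downregulated. The log2-Fold changes of the 10 rows had a median of 0.34, against 0.02 for all genes tested, and ranged from -0.06 to 1.30, with 9 above 0. In the 3 upregulated genes every IDPN-4wk library was above every Control library, which held for 18.5% of all genes tested, and in the other 7 rows the groups overlapped. With glmTreat, where a change must exceed 1.5-fold by the test itself, 0 of the 10 rows passed and 1 had an unadjusted p under 0.05. The DESeq2 test called 2 rows as upregulated and 0 as downregulated, and 0 rows were lower at an unadjusted edgeR p under 0.05.

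**Figure D1:**
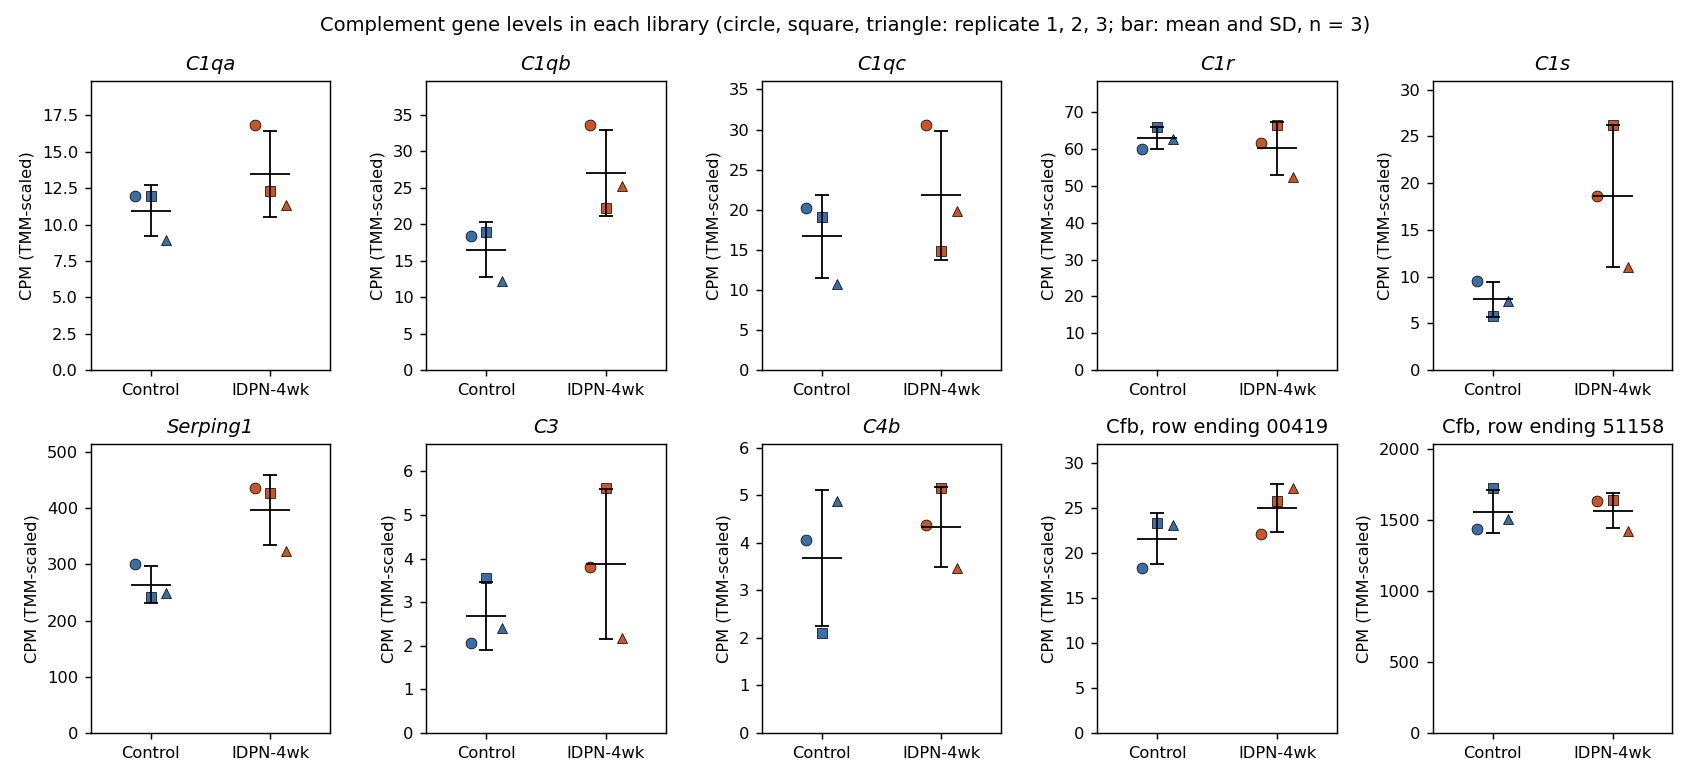
CPM after TMM scaling (vertical axes, each from 0) of the 10 rows of complement genes in the 3 Control (blue) and 3 IDPN-4wk (orange) libraries; each point is 1 animal and bars give the mean and SD. The groups are apart for C1qb, C1s and Serping1 and overlap in the other 7 panels.

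The recognition molecule C1q was read from its 3 chains. C1qb (ENSRNOG00000012749) had 18.4, 18.9 and 12.2 CPM in Control animals and 33.6, 22.3 and 25.2 CPM in IDPN-4wk libraries. The highest Control library stayed below the lowest IDPN-4wk library, and Control 3 was the lowest of all. Mean levels were 16.5 ± 3.76 CPM in Control animals and 27.0 ± 5.86 CPM in IDPN-4wk (SD, n = 3 each). The log2-Fold change was 0.71 ± 0.19 (SE; edgeR Padj 0.0271). The call of C1qb was lost when Control 3 was left out (log2-Fold change 0.53, edgeR Padj 0.0864) and when IDPN-4wk 1 was left out (0.52, edgeR Padj 0.116). In bulk samples, more cells of a type and more RNA per cell cannot be told apart.

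C1qa (ENSRNOG00000012807) and C1qc (ENSRNOG00000012804) were not called. C1qa had 11.9, 12.0 and 8.92 CPM in Control animals and 16.8, 12.3 and 11.3 CPM in IDPN-4wk libraries, so that IDPN-4wk 3 lay among the Control values. Its log2-Fold change was 0.30, with a 95% interval from -0.12 to 0.72 (edgeR Padj 0.310). C1qc had 20.2, 19.1 and 10.8 CPM in Control animals and 30.6, 14.9 and 19.9 CPM in IDPN-4wk libraries. Here IDPN-4wk 1 stood above the other libraries and IDPN-4wk 2 was below 2 of the 3 Controls. The log2-Fold change of C1qc was 0.37, with a 95% interval from -0.23 to 0.98 (edgeR Padj 0.373). The intervals of C1qa and C1qc both include the value of C1qb. Without 1 library, C1qa ranged from 0.10 to 0.39 and C1qc from 0.05 to 0.59, and neither was called.

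Within each library the share of C1qb among the counts of the 3 chains needs no scaling. It was 36.4%, 37.9% and 38.2% in Control and 41.5%, 45.0% and 44.7% in IDPN-4wk libraries. All IDPN-4wk libraries were above all Controls, with means of 37.5% ± 0.974 and 43.7% ± 1.97 (SD, n = 3 each). Expressed as a ratio of C1qb to C1qa plus C1qc, the same counts gave 0.600 ± 0.0247 in Control and 0.779 ± 0.0611 in IDPN-4wk libraries. This quantity was chosen after the values had been seen. The exact permutation test over 3 libraries against 3 cannot give a p below 0.1.

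Macrophage markers were given beside C1q because macrophages are its main source. Of 15 macrophage markers, all tested, 1 was upregulated and 0 downregulated in edgeR (3 higher and 1 lower at an unadjusted p under 0.05), with a median log2-Fold change of -0.08. The upregulated one was Cd14, a co-receptor for bacterial lipopolysaccharide (log2-Fold change 0.69, edgeR Padj 0.00261). The summed macrophage level ranged from 409 to 469 CPM in Control animals and from 331 to 501 CPM in IDPN-4wk libraries. IDPN-4wk 2 had the lowest summed level and also the lowest Csf1r, the receptor for the macrophage growth factor, at 21.0 CPM against 45.6 to 58.0 CPM in Control.

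Counts of the C1q chains per count of the macrophage list were 0.108, 0.107 and 0.0779 in Control and 0.162, 0.149 and 0.117 in IDPN-4wk libraries. The groups did not overlap, although IDPN-4wk 3 was close to the highest Controls. The log2 difference was 0.55 (exact two-sided permutation p = 0.1, the smallest possible), and it was 0.86 with Cd68, Csf1r and Aif1 alone as the denominator. The ratio describes C1q RNA against the markers, and the part of macrophage number in the C1qb result was not tested.

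The proteases of the C1 complex, whose genes are neighbours, differed from each other. C1s (ENSRNOG00000011971) had 9.56, 5.80 and 7.36 CPM in Control animals and 18.6, 26.2 and 11.0 CPM in IDPN-4wk libraries. IDPN-4wk 2 was the highest library and IDPN-4wk 3 lay closest to the Controls, but above each of them. The mean was 2.46 times higher in IDPN-4wk, at 18.6 ± 7.60 against 7.57 ± 1.89 CPM (SD, n = 3 each). The log2-Fold change was 1.30 ± 0.29 (SE; edgeR Padj 0.0104). C1s passed both thresholds whichever library was left out, with log2-Fold changes from 0.96 to 1.55.

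C1r (ENSRNOG00000011796), the protease that activates C1s, had 60.0, 65.9 and 62.8 CPM in Control animals and 61.7, 66.5 and 52.5 CPM in IDPN-4wk libraries. The groups overlapped and IDPN-4wk 3 was the lowest. The log2-Fold change was -0.06, with a 95% interval from -0.28 to 0.15 (edgeR Padj 0.699). This interval does not reach the fold threshold in either direction. Counts of C1s per count of C1r were 0.159, 0.0880 and 0.117 in Control and 0.302, 0.394 and 0.210 in IDPN-4wk libraries. The groups did not overlap in this ratio, which was chosen after the values had been seen (log2 difference 1.31, exact two-sided permutation p = 0.1, the smallest possible).

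Serping1 (ENSRNOG00000007457), the inhibitor of both proteases, had 301, 242 and 249 CPM in Control animals and 436, 428 and 325 CPM in IDPN-4wk libraries. IDPN-4wk 3 was again the nearest to Control but above each Control library. Mean levels were 264 ± 32.3 CPM in Control animals and 396 ± 62.1 CPM in IDPN-4wk (SD, n = 3 each). The log2-Fold change of 0.59 ± 0.12 (SE; edgeR Padj 0.00694) lay just past the fold threshold of 1.5. It was 0.58 and under the threshold with the size factors of DESeq2, in the DESeq2 test and with no filter on low counts, and glmTreat did not call it, so that 5 of 9 alternatives with all libraries kept the call. Without 1 library it ranged from 0.50 to 0.70, with 2 of 6 fits past both thresholds and every edgeR Padj at most 0.0393. The libraries whose removal took it under the threshold were Control 2, Control 3, IDPN-4wk 1 and IDPN-4wk 2.

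Serping1 counts per count of C1r plus C1s set the inhibitor against its targets within each library. They were 4.33, 3.38 and 3.55 in Control and 5.43, 4.61 and 5.11 in IDPN-4wk libraries, with no overlap. The means were 3.75 ± 0.508 and 5.05 ± 0.412 (SD, n = 3 each; log2 difference 0.44, exact two-sided permutation p = 0.1, the smallest possible). The direction depended on the protease: against C1r alone the log2 difference was 0.65, and against C1s alone it was -0.66. In all, 7 ratios were tested, and each had an adjusted p of 0.1 in the exact permutation test.

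**Figure D2:**
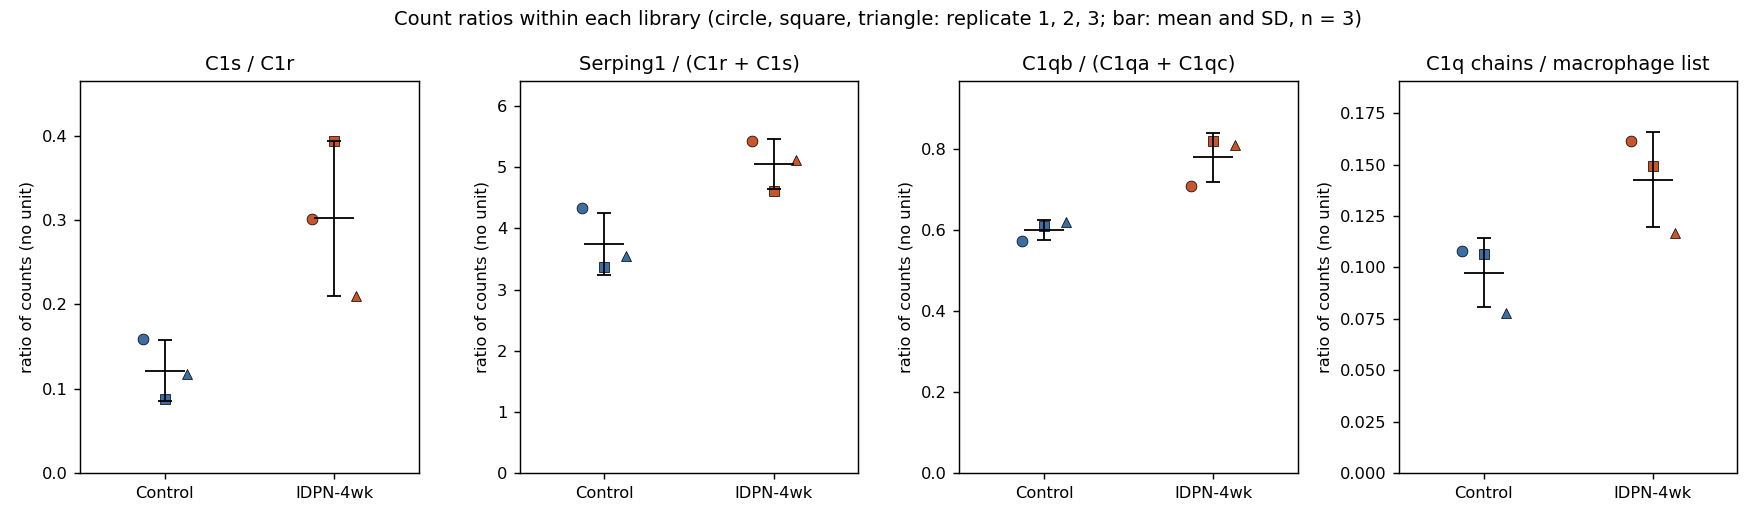
Ratios of counts within each library (vertical axes, from 0, no unit) in 3 Control (blue) and 3 IDPN-4wk (orange) libraries, with mean and SD. In each of the 4 panels the 3 IDPN-4wk libraries lie above the 3 Controls, with C1s per C1r moving most, from 0.122 to 0.302 on average.

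The components downstream of C1 were not called. C4b (ENSRNOG00000030729), which encodes a form of C4, had 4.07, 2.10 and 4.88 CPM in Control animals and 4.39, 5.16 and 3.48 CPM in IDPN-4wk libraries. The groups overlapped and Control 2 was the lowest (log2-Fold change 0.24, 95% interval from -0.47 to 0.95, edgeR Padj 0.647). Reads that match both C4b and its close copy C4a would be shared between them, so the split is uncertain. C4a took 0% of the C4 counts in Control 1 and from 18.9% to 30.6% in the other 5 libraries. Summed, both C4 genes had 4.07, 2.59 and 6.37 CPM in Control animals and 5.82, 7.43 and 4.70 CPM in IDPN-4wk libraries, again with overlap (log2-Fold change 0.47, edgeR Padj 0.340).

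C3 (ENSRNOG00000046834), the central component, had 2.07, 3.56 and 2.41 CPM in Control animals and 3.81, 5.62 and 2.19 CPM in IDPN-4wk libraries. IDPN-4wk 3 was within the Control range, whereas IDPN-4wk 1 and IDPN-4wk 2 were above it. With 32 to 109 counts per library, the log2-Fold change of 0.54 had a 95% interval from -0.27 to 1.36 (edgeR Padj 0.339). This interval includes both 0 and the value of C1s. Without 1 library the log2-Fold change of C3 ranged from 0.16 (without IDPN-4wk 2) to 0.81 (without IDPN-4wk 3), and it was never called.

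The symbol Cfb stands at 2 rows, and which of them measures Cfb was not determined. ENSRNOG00000051158 had 1436, 1727 and 1509 CPM in Control animals and 1633, 1639 and 1424 CPM in IDPN-4wk libraries. Its groups overlapped, with IDPN-4wk 3 the lowest library and Control 2 the highest (log2-Fold change 0.01, 95% interval from -0.19 to 0.21, edgeR Padj 0.965). ENSRNOG00000000419 had 18.3, 23.3 and 23.1 CPM in Control animals and 22.1, 25.8 and 27.2 CPM in IDPN-4wk libraries, with overlap through IDPN-4wk 1 (log2-Fold change 0.22, 95% interval from -0.08 to 0.51, edgeR Padj 0.291). Reads that match both rows would be shared between them, and their sum gave a log2-Fold change of 0.01. In the GRCr8 gene order Cfb lies between C2 and Nelfe on chromosome 20, and without strand its reads were not separated from those of overlapping genes.

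The highest library was the same for the C1q chains and Serping1, and the lowest was the same for C1s and Serping1. The C1q chains and C1s had neither in common. On the log2 scale, centred on each gene's mean over the 6 libraries, the mean of the C1q chains was highest in IDPN-4wk 1 (0.64) and lowest in Control 3 (-0.65). IDPN-4wk 3 was at 0.11 and IDPN-4wk 2 at -0.05, below Control 1 and Control 2, although C1qb alone was higher in IDPN-4wk 2 than in every Control. C1s was highest in IDPN-4wk 2 (1.19) and lowest in Control 2 (-0.96). Serping1 was similar in IDPN-4wk 1 (0.44) and IDPN-4wk 2 (0.41) and near its mean in IDPN-4wk 3 (0.02). The interferon-stimulated list had the same order of IDPN-4wk libraries as Serping1, at 0.48, 0.41 and 0.21. Among the Controls the order differed: the list was highest in Control 2 (-0.30), where Serping1 was lowest (-0.41). The macrophage list had the same order of IDPN-4wk libraries as the C1q chains, at 0.40 in IDPN-4wk 1, -0.32 in IDPN-4wk 2 and 0.13 in IDPN-4wk 3. The values of both lists are medians over the genes of the list. The part of interferon-stimulated or macrophage RNA in the complement results was not tested.

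**Figure D3:**
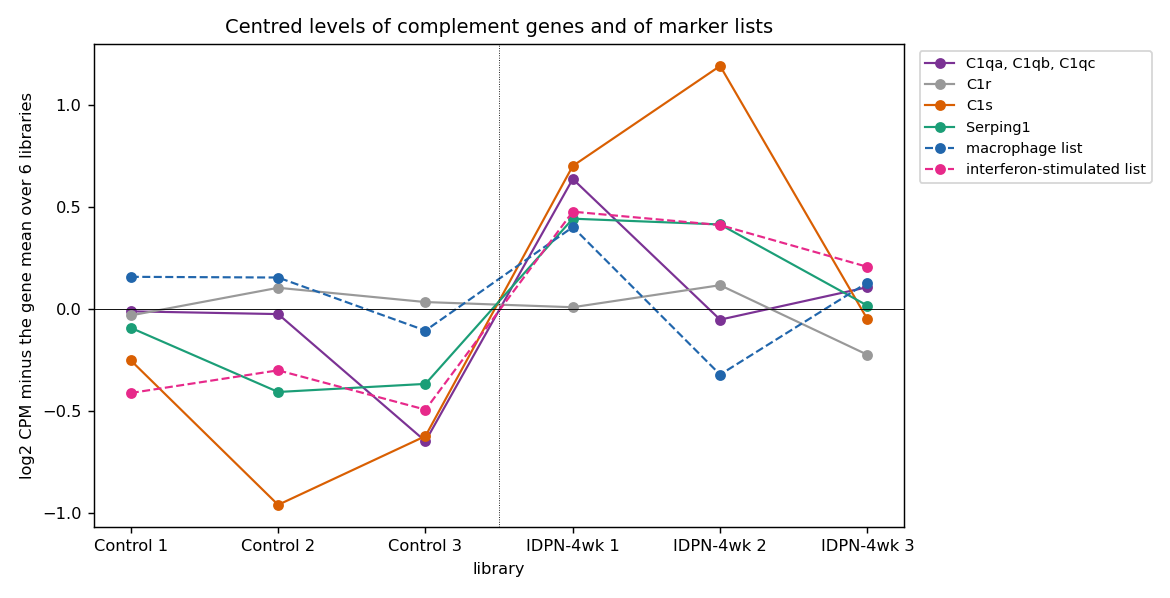
Log2 CPM centred on the mean over 6 libraries (vertical axis), by library (horizontal axis). Shown are C1q (mean of its chains), C1r, C1s, Serping1 and, dashed, the medians over the genes of the macrophage and interferon-stimulated lists. Lines only join the points of one gene or list. C1s is highest in IDPN-4wk 2 (1.19), C1q in IDPN-4wk 1 (0.64), and C1r stays between -0.23 and 0.12.

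The genes whose centred profiles were nearest to the mean of the C1q chains were Slc7a2, Cxcl9, Rbm22, Clec5a and Prune2, with root mean square differences from 0.0653 to 0.117 on the log2 scale over 6 libraries. The C1q chains themselves lay from 0.134 to 0.140 from their mean. The genes nearest to the mean of C1r and C1s were Tnnc1, Pml, LOC108351584, Igtp and Chrdl2, from 0.0839 to 0.112. C1r and C1s were each 0.369 from that mean, farther than these 5 genes. With 6 libraries and 13814 genes compared, near profiles are a description only.

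The rest of the complement system was read from a list of 51 other genes, of which 44 had a row under their symbol and 31 passed the filter. In edgeR 0 were upregulated and 3 of 31 were downregulated, C7, Susd4 and Csmd1, against 6.62% of all genes tested, so the count is near the background. At an unadjusted edgeR p under 0.05, 3 were higher and 7 lower, and the DESeq2 test called 0 as upregulated and 3 as downregulated. The 31 log2-Fold changes had a median of -0.05, against 0.02 for all genes tested, with 14 above and 17 below 0. The list held 7 genes at 0 in every library, among them Vsig4, a macrophage receptor for C3 fragments, and the C8a and C8b chains of the membrane attack complex.

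C7, a component of the membrane attack complex, had 151, 75.0 and 99.6 CPM in Control animals and 52.3, 37.2 and 27.1 CPM in IDPN-4wk libraries. Every IDPN-4wk library was below every Control, and the means were 108 ± 38.7 and 38.9 ± 12.7 CPM (SD, n = 3 each). The log2-Fold change was -1.49 ± 0.26 (SE; edgeR Padj 0.00268). The other terminal components were not called. C9, the pore-forming subunit, had 0.387, 0.629 and 0.283 CPM in Control animals and 1.22, 0.980 and 1.16 CPM in IDPN-4wk libraries, or at most 19 counts (log2-Fold change 1.35, edgeR Padj 0.0667). For C6 the value was -0.36 (edgeR Padj 0.690), and C5 had 3 counts or fewer in every library.

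Of the 7 membrane regulators tested, 2 were downregulated, against 6.62% of all genes tested, and no test was made on this group. Susd4, a membrane inhibitor of complement, had 27.4, 30.0 and 31.9 CPM in Control animals and 13.7, 16.4 and 19.7 CPM in IDPN-4wk libraries. The groups were apart (log2-Fold change -0.84 ± 0.14, SE, edgeR Padj 0.00233). Csmd1, a large membrane protein of neural tissue that inhibits complement, had 37, 91 and 50 counts in Control and 1, 3 and 2 counts in IDPN-4wk libraries. After correction for library size its level in IDPN-4wk was 3.03% of that in Control, with a counting interval from 1.10% to 6.73% (edgeR Padj 2.07e-04). The fitted log2-Fold change of -4.97 rests on these few counts. The anchored regulators Cd55 and Cd59 were not called, at log2-Fold changes of 0.08 (edgeR Padj 0.847) and -0.23 (edgeR Padj 0.0723). Cd46 had a value of 1.22 from at most 24 counts (edgeR Padj 0.124).

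C2, the partner of C4 in the classical C3-cleaving enzyme, had 316, 309 and 313 CPM in Control animals and 279, 301 and 236 CPM in IDPN-4wk libraries. All IDPN-4wk values were below the Controls, but the difference did not pass the test (log2-Fold change -0.20, edgeR Padj 0.145). In the alternative pathway, Cfd, which cleaves factor B, and Cfp, the properdin that stabilises the enzyme, had log2-Fold changes of -0.11 (edgeR Padj 0.820) and 0.44 (edgeR Padj 0.261). Of the soluble regulators, Cfi, a protease that inactivates C3b and C4b, had a value of 0.49 (edgeR Padj 0.240). Clu, clusterin, had 3441, 3080 and 2904 CPM in Control animals and 3673, 3573 and 3208 CPM in IDPN-4wk libraries, which overlapped (log2-Fold change 0.15, edgeR Padj 0.255).

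The receptors for complement fragments were not called. C3ar1 and C5ar1, which bind the C3a and C5a fragments, had log2-Fold changes of -0.01 (edgeR Padj 0.993) and -0.12 (edgeR Padj 0.859). Itgb2, the common chain of the leukocyte complement receptors, had a value of 0.22 (edgeR Padj 0.747), with groups that overlapped. Itgax, a chain that pairs with it in one of these receptors and was named after its values were seen, had 0.194, 0.559 and 1.49 CPM in Control animals and 3.09, 0.516 and 3.99 CPM in IDPN-4wk libraries. IDPN-4wk 2 lay within the Control range and the other IDPN-4wk libraries above it (log2-Fold change 1.75, edgeR Padj 0.133), and without IDPN-4wk 2 Itgax was called upregulated (2.25, edgeR Padj 0.0366). Itgam had no row under that symbol and was not analysed here.

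**Figure D4:**
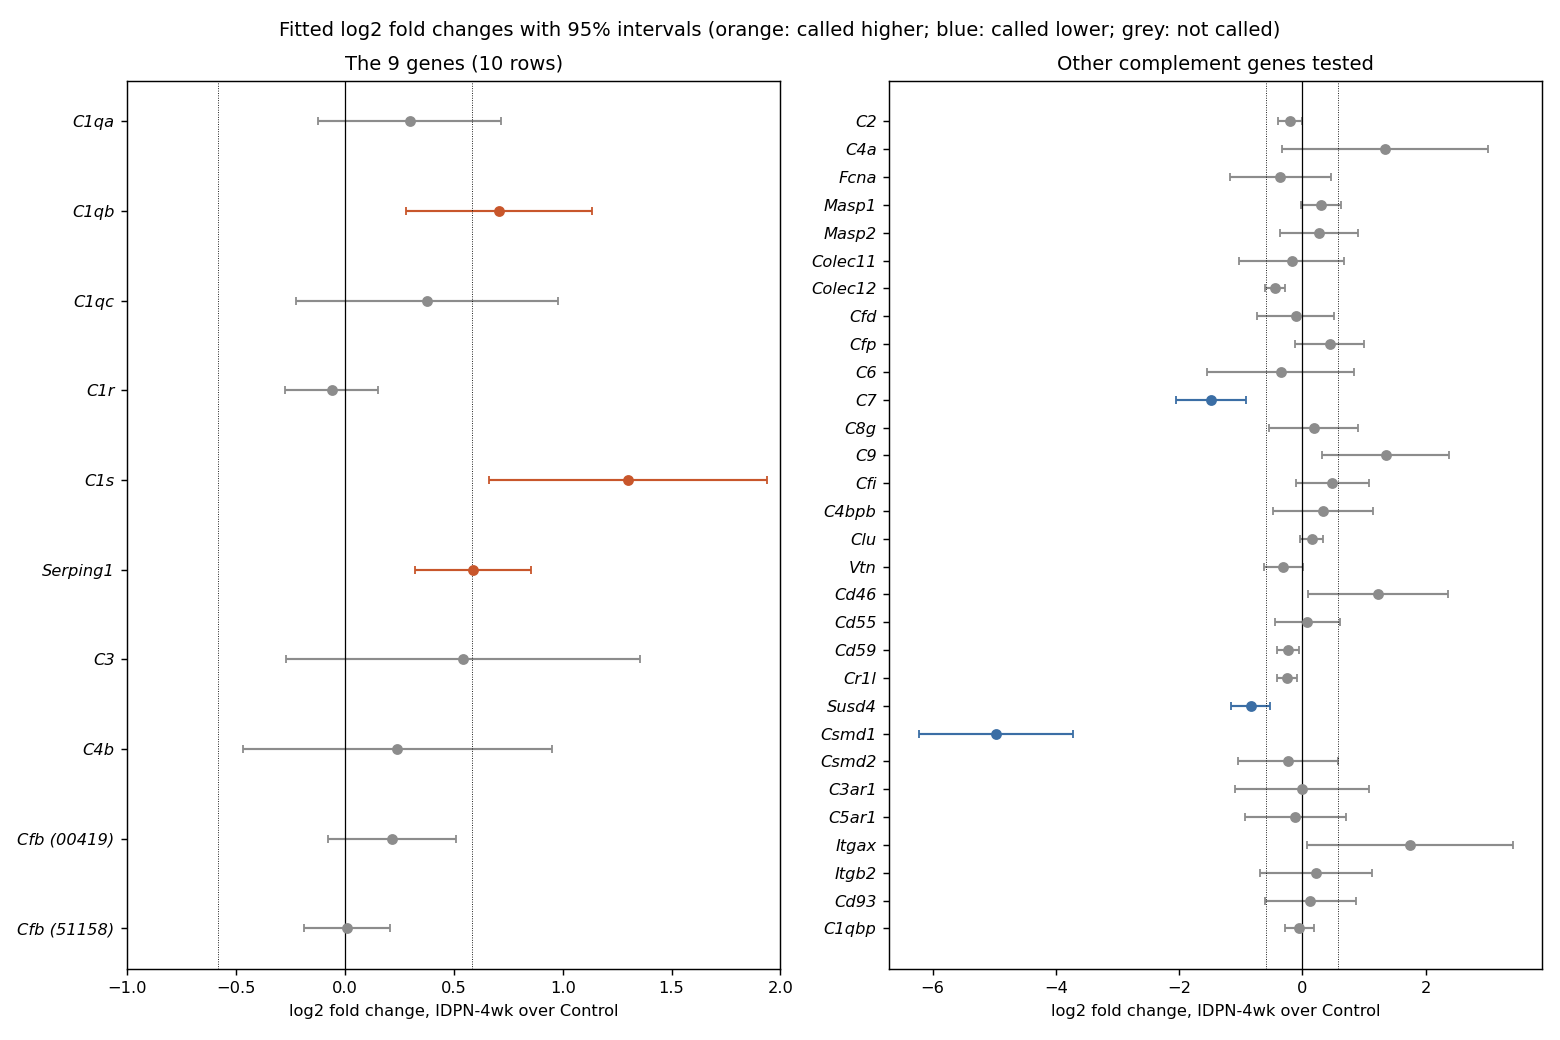
Log2-Fold change of IDPN-4wk over Control from edgeR (horizontal axis) with 95% intervals for the 10 rows of the 9 genes (left) and the other complement genes reported here (right); orange marks upregulated, blue downregulated and grey uncalled genes, and dotted lines mark a fold change of 1.5. The upregulated genes are C1qb, C1s and Serping1, and the downregulated ones C7, Susd4 and Csmd1.

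Markers of other cells were read beside these results. The hepatocyte markers Alb and Fga, products of the liver cells that make plasma complement, had 0 counts in all 6 libraries, and the other 5 of the 7 markers had counts in some. Ttr had 1, 5 and 1 counts in Control and 4, 19 and 12 counts in IDPN-4wk libraries. Serpina1, the only one that passed the filter, was downregulated (log2-Fold change -1.82, edgeR Padj 0.00725), and the summed hepatocyte level ranged from 4.00 to 6.30 CPM in Control animals and from 1.73 to 3.15 CPM in IDPN-4wk libraries. Neutrophil, T and NK cell, and B and plasma cell markers each had 1 gene that passed the filter, and none was called. Their summed levels were at most 2.97, 5.95 and 1.10 CPM in Control animals and 3.09, 9.14 and 1.16 CPM in IDPN-4wk libraries, in that order. The stroma list had a summed level from 1017 to 1178 CPM in Control animals and from 977 to 1072 CPM in IDPN-4wk libraries, with Col1a1 upregulated, Lum downregulated and a median log2-Fold change of 0.00. The endothelium and Schwann cell lists had medians of -0.28 and -0.55, with 1 downregulated gene each and none upregulated. Summed Schwann cell levels ranged from 8432 to 10657 CPM in Control animals and from 5719 to 8620 CPM in IDPN-4wk libraries, and endothelium levels from 367 to 507 and from 331 to 382 CPM. The red blood cell list had a median of 0.66 and 1 upregulated gene, Hbb, with summed levels from 95.3 to 114 CPM in Control animals and from 111 to 221 CPM in IDPN-4wk libraries. The supporting cell list had 3 of 9 genes downregulated and a median of -0.34, with summed levels from 9586 to 10626 CPM in Control animals and from 5249 to 6427 CPM in IDPN-4wk libraries. The parts of these cells in the complement results were not tested.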

How the data were processed

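RNA from the pooled utricles and cristae of each rat was reverse transcribed with an oligo-dT primer (SMART-seq2), without strand. The authors mapped reads with STAR (2.5.3a per the submitters' processing notes) to Rnor6.0 and deposited expected counts per gene from RSEM (1.3.0 per the same notes, whereas the study's methods name another version), which were whole numbers. Reads matching close copies would be shared among them, so C4a, C4b and both Cfb rows are uncertain. Groups followed the treatment label (3 Control, 3 IDPN-4wk). Replicates were numbered by accession order. The sample titles give each library its own animal code, so p-values measure the spread between animals. A prefix shared by the IDPN-4wk codes alone may mark a cage or litter, which the labels do not say.

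The filter filterByExpr, set to a minimum count of 10 and a total of 15, left 14352 genes. They were scaled with TMM and tested with glmQLFit and glmQLFTest of edgeR 4.0.16 in R 4.3.3, with Benjamini-Hochberg adjustment over all genes tested. Intervals are 95% intervals of that fit. Csmd1 has a counting interval, which covers counting error only. Ratios of raw counts were tested by exact two-sided permutation of the libraries. DESeq2 1.42.0, glmTreat, other scalings, other filters and leaving out each library were alternatives. The edgeR script was tested on simulated data.

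The genes and lists were chosen with earlier results of these data known. Genes named were the 9 genes, other complement genes past both thresholds, further complement genes set by name whatever their result (1 of them is not reported here), and the 5 genes nearest in profile (root mean square difference of centred log2 CPM, prior count 2, mean of at least 1 CPM) to C1q and to C1r with C1s. Other genes are marker list members or were chosen after their values were seen. Gene order and promoters are from RefSeq (GRCr8), another build than that of the counts, so no coordinates were joined.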

Additional observations from a re-analysis of the deposited data

How the results depend on the processing

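No paired analysis was made, since the labels carry no replicate numbers. The animal codes end in letters that occur once in each group, but the labels do not say what these mark, and they were not used to pair animals. Without any 1 library, all genes called ranged from 1085 to 1581, upregulated complement genes from 1 to 3, other complement genes upregulated from 0 to 1 (Itgax without IDPN-4wk 2) and downregulated from 3 to 3. The log2 difference of Serping1 per C1r plus C1s ranged from 0.36 to 0.54, and that of C1q per macrophage count from 0.40 to 0.69. glmTreat called 453 genes in all and 0 of the 9 complement genes (C1s edgeR Padj 0.113), and left 2 other complement genes as downregulated, Susd4 being lost. A mean count of at least 50 also left 2, since it removed Csmd1 from the test. An adjusted p alone called 2778 genes and 5 other complement genes as downregulated, Colec12 and Cr1l being added. With library size alone, 1 other complement gene was upregulated (C9, log2-Fold change 1.46, edgeR Padj 0.0424), 762 genes were higher and 780 lower, against 444 and 950 with TMM. The median over all genes was then at 0.13 (log2) instead of 0.02. Serping1 per C1r alone gave 0.65, per C1s alone -0.66, and C1q per Cd68, Csf1r and Aif1 count gave 0.86.

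Signs near 0 changed. Cfb (ENSRNOG00000051158) was at -0.00121 with DESeq2 size factors, at -0.00120 with the DESeq2 test, and from -0.0482 to 0.0875 without 1 library, below 0 without Control 1, Control 3, IDPN-4wk 1 or IDPN-4wk 2. C1r was at 0.0483 with library size alone and from -0.143 to 0.0161 without 1 library, above 0 without IDPN-4wk 3. C4b was from -0.0399 (without Control 2) to 0.490. Of the values of single complement genes under alternatives, 128 kept their direction and call, 12 lost the call and 9 changed sign. Summing C4a with C4b and both Cfb rows was chosen after seeing the data and changed no call of a complement gene (1395 genes were called in all). Low counts limit C3, C4b, C9 and Csmd1.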

Other observations

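Gene families related to the complement genes by function or sequence were read after their values had been seen, and nothing further was tested on them. Serping1 is a serpin and also inhibits plasma kallikrein and factor XII, enzymes that release bradykinin from kininogen. Klkb1 and F12, the genes of these enzymes, had at most 6 counts in any library and were not tested. Of 11 other serpins tested, 0 were upregulated in edgeR (at an unadjusted p under 0.05, 2 were higher and 2 lower) and Serpina1 was downregulated (log2-Fold change -1.82, edgeR Padj 0.00725). Serpinh1, a collagen chaperone, was at 0.52, under the fold threshold (edgeR Padj 0.00327), as was Serpinf1, an inhibitor of vessel growth, at -0.27 (edgeR Padj 0.0178). Kng1, which encodes kininogen, had 0.646, 0.489 and 0.779 CPM in Control animals and 4.74, 3.66 and 3.28 CPM in IDPN-4wk libraries, with groups apart (log2-Fold change 2.59, edgeR Padj 5.91e-04). Bdkrb2, a bradykinin receptor, was not called (1.10, edgeR Padj 0.0883), and Bdkrb1, another, had 0 counts in every library.

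C1q shares its globular domain with the C1q and TNF related proteins. Of 8 such genes tested, C1qtnf1 and C1qtnf5 were upregulated and none was downregulated, against 3.09% and 6.62% of all genes tested. C1qtnf1 had 82.5, 72.1 and 72.6 CPM in Control animals and 119.8, 135 and 138 CPM in IDPN-4wk libraries (log2-Fold change 0.79, edgeR Padj 1.55e-04). Ptx3, a pentraxin that binds C1q, was upregulated, at 7.55 ± 0.609 CPM in Control animals and 12.8 ± 2.49 CPM in IDPN-4wk (SD, n = 3 each; edgeR Padj 0.0157), whereas Nptx1, a neuronal pentraxin, was at -0.54, under the fold threshold (edgeR Padj 0.00803).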
